A study of Mus musculus with 12 samples.

Results

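C-type lectin receptors were followed as a set of 10 listed genes, Cd209a, Cd207, Clec10a, Clec4b1, Clec4a2, Clec4d, Clec4e, Clec4n, Clec7a and Clec9a, chosen by name. Of these, 9 had a probe set annotated to them alone, and all 9 passed the filter on low signals, among 18193 genes with such a probe set and 12429 genes tested. Clec9a was not analysed here. The messenger RNA came from 12 cultures of marrow cells, grown for 10 days in GM-CSF at 20 ng/ml and hybridised to 12 single-colour Affymetrix arrays. The marrow came from BALB/c or BL6 mice aged 6 to 8 weeks, and all groups share the GM-CSF. The 6 conditions were no retinoid, all-trans retinoic acid (RA, labelled 10 nmol/ml) and Ro41-5253 (Ro, labelled 100 nmol/ml), each without or with LPS (1 ug/ml), with 1 culture per strain and condition. RA activates retinoic acid receptors, Ro blocks their alpha form, and LPS is a bacterial wall component sensed by a Toll-like receptor. The reagents were present from the start of culture, and no separate time of LPS exposure is given. Marrow cultures grown in GM-CSF are known to hold macrophages as well as dendritic cells, so a signal belongs to a mixed culture.

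C-type lectin receptors are surface proteins that bind sugars, lipids or dead cell material on microbes and host cells, and dendritic cells use them to take up antigen and to sense fungi and mycobacteria. One group signals through the kinase Syk, either by a motif in its own tail (Clec7a, also called dectin-1, a receptor for fungal beta-glucan) or through the adaptor Fcer1g (Clec4e, also called Mincle, which binds mycobacterial cord factor, its partner Clec4d, Clec4n, also called dectin-2, which binds fungal mannans, and Clec4b1, also called DCAR). Clec4a2, also called DCIR, carries an inhibitory motif that recruits phosphatases. The others are known mainly as uptake receptors and as marks of dendritic cell types: Cd209a, a mouse relative of human DC-SIGN, Cd207, also called langerin, the lectin of Langerhans cells, Clec10a, a lectin for galactose-type sugars, and Clec9a, which binds exposed actin of dead cells.

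All 6 dendritic cell markers were among the tested genes, with signals of 1013 to 6159 for the integrin gene Itgax and 7047 to 11840.5 for the MHC class II gene H2-Ab1 over the 12 arrays. Of 11 macrophage markers all were tested as well, and Csf1r, a macrophage growth factor receptor, ran from 819 to 10905. Flt3 (4.89 to 101) and Zbtb46 (26.2 to 501), markers of conventional dendritic cells, were dim. Of the 7 listed T and NK cell markers 5 had a probe set of their own, and none of these passed the filter. Array medians ran from 21.4 to 41.8, and the highest of them, 41.8, is called background here. No fold is given where a group's mean signal lay below it. A change is the log2 difference of signal + 16 relative to the median change of all tested genes, ± the model's standard error, and "rose" and "fell" refer to an adjusted p under 0.05. Each adjusted p is that of the difference itself, before the median change is subtracted.

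Promoters are printed for the neighbouring genes Clec4b1, Clec4a2, Clec4d and Clec4e, which moved in opposite directions with LPS, and for Cd207 and Cd209a, which both rose with Ro in cultures without LPS. The sequences are RefSeq's for GRCm38.p6, a genome of the BL6 strain, and run 5′ to 3′ on the gene's strand from 250 bases before to 50 bases after the start of the gene. The table held promoters of 8 of the 10 genes. Capitals mark matches, on either strand, to the motifs named below the sequences.
Clec4b1 promoter (chr6:123049712-123050011, plus strand): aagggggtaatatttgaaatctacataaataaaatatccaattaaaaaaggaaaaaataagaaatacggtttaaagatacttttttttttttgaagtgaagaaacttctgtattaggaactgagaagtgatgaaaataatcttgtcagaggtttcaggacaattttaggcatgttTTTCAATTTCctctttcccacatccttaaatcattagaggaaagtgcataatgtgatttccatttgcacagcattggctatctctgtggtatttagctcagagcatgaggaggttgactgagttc
Clec4a2 promoter (chr6:123122440-123122739, plus strand): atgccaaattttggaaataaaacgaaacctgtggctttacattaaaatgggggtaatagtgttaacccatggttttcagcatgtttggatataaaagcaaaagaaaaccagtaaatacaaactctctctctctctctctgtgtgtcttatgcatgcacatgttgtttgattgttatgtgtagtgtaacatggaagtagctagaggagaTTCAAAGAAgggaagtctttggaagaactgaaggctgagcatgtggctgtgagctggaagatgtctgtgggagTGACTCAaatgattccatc
Clec4d promoter (chr6:123261857-123262156, plus strand): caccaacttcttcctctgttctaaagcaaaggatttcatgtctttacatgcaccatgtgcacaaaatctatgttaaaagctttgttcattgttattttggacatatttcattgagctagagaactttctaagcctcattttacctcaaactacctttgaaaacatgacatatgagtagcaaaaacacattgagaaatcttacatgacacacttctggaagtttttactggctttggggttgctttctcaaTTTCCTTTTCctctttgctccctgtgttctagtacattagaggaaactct
Clec4e promoter (chr6:123289822-123290121, minus strand): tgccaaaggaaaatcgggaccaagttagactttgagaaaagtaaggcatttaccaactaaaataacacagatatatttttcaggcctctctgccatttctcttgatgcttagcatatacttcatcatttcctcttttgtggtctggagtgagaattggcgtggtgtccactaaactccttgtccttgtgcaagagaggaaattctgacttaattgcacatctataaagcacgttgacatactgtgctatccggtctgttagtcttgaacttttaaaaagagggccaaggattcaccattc
Cd207 promoter (chr6:83677808-83678107, minus strand): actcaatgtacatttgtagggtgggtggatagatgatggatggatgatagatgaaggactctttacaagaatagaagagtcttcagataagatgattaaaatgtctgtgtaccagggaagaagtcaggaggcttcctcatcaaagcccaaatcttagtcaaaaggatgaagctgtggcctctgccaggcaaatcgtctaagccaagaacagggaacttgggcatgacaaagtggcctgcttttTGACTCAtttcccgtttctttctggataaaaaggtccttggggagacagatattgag
Cd209a promoter (chr8:3748935-3749234, minus strand): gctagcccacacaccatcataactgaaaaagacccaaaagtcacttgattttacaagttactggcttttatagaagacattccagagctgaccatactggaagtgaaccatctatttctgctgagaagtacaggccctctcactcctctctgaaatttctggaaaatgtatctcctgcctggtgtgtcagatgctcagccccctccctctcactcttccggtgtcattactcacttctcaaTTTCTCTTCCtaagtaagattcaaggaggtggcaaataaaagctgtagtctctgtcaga

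The motifs searched, on both strands and with N for any base, were AGGAAGT (PU.1 and related factors), GAAA and GAAA with 2 bases between them (interferon regulatory factors), GGAA and GAAA with 2 bases between them (PU.1 with IRF4 or IRF8), GGG and TTCC with 3 bases between them (NF-kappaB), TGANTCA (AP-1 and BATF), TTGCNNCAA (C/EBP), TTCNNNGAA (STAT5) and AGGTCA (retinoic acid and other nuclear receptors). The motifs of interferon regulatory factors and of PU.1 with IRF4 or IRF8 differ in their second letter only. The former lies in the promoters of Clec4b1, which fell with LPS, and Clec4d, which rose, and in 3.44% of 32851 promoters of the same length. The latter lies in those of Cd209a and Clec7a (2.72% of all promoters). TGANTCA lies in those of Cd207 and Clec4a2 (7.81%), and TTCNNNGAA in that of Clec4a2 (8.3%). The motifs of NF-kappaB (5.56%), AGGTCA (16.3%), AGGAAGT (9.35%) and TTGCNNCAA (2.08%) are not in the windows of the 8 genes. In Cd207 and Cd209a the match starts 7 and 9 bases before the start of the gene. A match is only a description of the letters.

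The first comparison was LPS against no LPS, with 6 arrays against 6 averaged over retinoid and strain. Clec10a, Clec4b1, Clec4a2 and Cd209a fell from high signals to background or near it, while Clec4e and Clec4d rose. In all, 7 of the 9 lectin genes passed the threshold, 2 higher and 5 lower. LPS changed 58.9% of all tested genes, 11% higher and 47.9% lower, so that a share of called genes of this size is near what the array as a whole gave. LPS also moved the median of all genes by -0.41, and under quantile normalization, which removes that shift, the share of higher genes among all called genes was 45.6% in place of 18.7%. The median change of the 9 lectin genes was -1.21, against 0 for all genes by construction.

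Clec10a gave 2550.2, 2794 and 1288 on the BALB/c arrays without LPS (no retinoid, RA and Ro) and 2860, 3579 and 2230 on the BL6 arrays. With LPS the same cultures gave 32.8, 39.9 and 16.2 in BALB/c and 35.3, 79.1 and 44.9 in BL6. Every array with LPS was below every array without, and the change was -5.08 ± 0.16 (adjusted p = 2.5e-09, lower in 6 of 6 pairs of cultures). Clec4b1 behaved alike, with a lowest, median and highest signal of 764, 1082 and 2600 without LPS and of 10.3, 19.0 and 83.5 with it (-4.47 ± 0.22, adjusted p = 4.56e-08). For Cd209a the signals were 257, 678 and 3379 without LPS against 15.4, 19.4 and 36.8 with it (-4.09 ± 0.40, adjusted p = 3.07e-06). All 6 LPS arrays of Cd209a lay below background, and so did 4 of 6 of Clec10a and 5 of 6 of Clec4b1, so the sizes of these 3 changes depend on the added 16. In such cultures, fewer cells of a type and less RNA per cell cannot be told apart.

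Clec4a2, the receptor with the inhibitory motif, remained above background in 5 of 6 cultures with LPS. Its signals were 2397, 3321 and 4127 (lowest, median, highest) without LPS and 11.8, 176 and 210.1 with it. The groups did not overlap, and the fall was -4.09 ± 0.36 on the log2 scale (adjusted p = 1.41e-06). A second probe set of Clec4a2 gave -3.19 ± 0.23. Over the 12 arrays the log2 signals of Clec10a, Clec4b1 and Clec4a2 correlated with one another at r = 0.941 to 0.959, which describes arrays that share the LPS contrast.

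Clec4e, the cord factor receptor, rose most among the 9 genes. Without LPS it gave 838, 321 and 424 in BALB/c (no retinoid, RA, Ro) and 717, 335 and 663 in BL6. With LPS it gave 10112, 11480 and 2623 in BALB/c and 11838, 11986 and 5065 in BL6. The groups did not overlap, and the change was 4.29 ± 0.31, or 19.5-fold (adjusted p = 1.44e-06), with 3.58 ± 0.41 from a second, dimmer probe set. Its partner Clec4d gave 2388, 1945 and 926 without LPS and 6146, 5998 and 1053 with it in BALB/c, and 2070.1, 2140.4 and 1216 without and 5583, 6581 and 2418 with it in BL6. Clec4d was higher with LPS in 6 of 6 pairs and rose by 1.61 ± 0.20, or 3.05-fold (adjusted p = 0.000324), although the Ro culture of BALB/c with LPS lay within the range without LPS.

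Changes were smaller for the fungal receptors. Clec4n gave 9166, 9863 and 10216 (lowest, median, highest) without LPS and 2002, 6919 and 7880 with it, near the upper end of a scale whose highest value on any array was 17488. Every array with LPS was below every array without. Averaged over retinoid, Clec4n passed with -0.40 ± 0.22 relative to the median gene and -0.82 before the median change was subtracted (adjusted p = 0.00691). Relative to the median gene, the values within conditions were 0.14 ± 0.27 without retinoid (adjusted p = 0.267), -0.05 ± 0.27 with RA (adjusted p = 0.224) and -1.27 ± 0.27 with Ro (adjusted p = 0.00156). With every array scaled to 1 common median the averaged value was -0.32 with adjusted p = 0.265. A second probe set gave -0.75 ± 0.25. Clec7a ran from 3083 to 8998 without LPS and from 3173 to 6673 with it, with a change of 0.15 ± 0.14 relative to the median gene and of -0.26 before the median change was subtracted (adjusted p = 0.13), and of -0.20 under quantile normalization. Cd207 was below background in 10 of 12 cultures and its averaged change of -1.21 ± 0.68 did not pass (adjusted p = 0.0558).

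**Figure D1:**
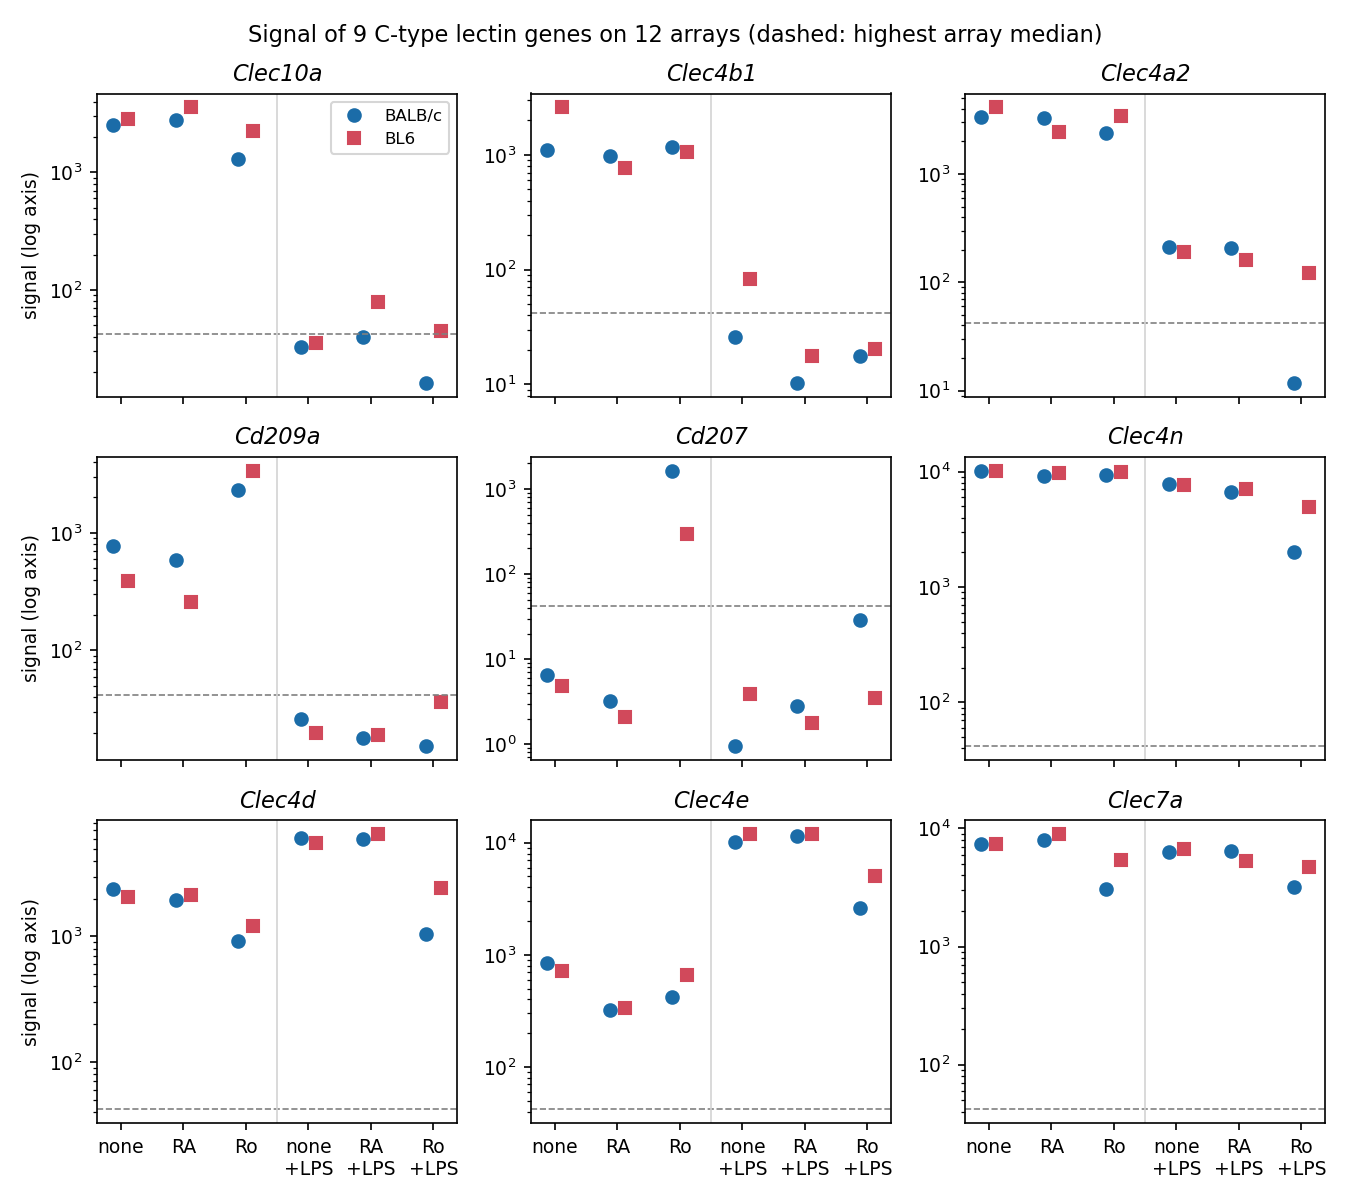
Signals of the 9 measured lectin genes (log axis, one point per array, circles BALB/c and squares BL6) in the 6 conditions, with the highest array median dashed. Clec10a, Clec4b1, Clec4a2 and Cd209a drop with LPS in every pair of cultures, Clec4e and Clec4d climb, and Cd207 lies above the dashed line only in the 2 Ro cultures without LPS.

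Markers of other cells moved with LPS as well, where 11% of all genes were higher and 47.9% lower. Of the monocyte markers 3 of 3 tested fell, their summed signal running from 1642 to 4932 without LPS and from 33.6 to 113 with it. Of the granulocyte markers 9 of 9 fell, from 11452 to 56102 without LPS to 424 to 5254 with it. Of 11 macrophage markers, 7 fell and Marco alone rose, the summed signals being 43952 to 73054 without LPS and 4583 to 51111 with it. Among dendritic cell markers 2 of 6 fell, with sums of 23958 to 34617 against 20852 to 28168. The part of these cells in the fall of the lectin genes was not tested.

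Of the lectin genes, 5 are neighbours on chromosome 6, in the RefSeq order Clec4b1, Clec4a2, Clec4n, Clec4d and Clec4e, with only 6 protein-coding genes from the first to the last. Their changes with LPS followed that order, from -4.47 and -4.09 at one end through -0.40 to 1.61 and 4.29 at the other. Clec4a3, which lies beyond Clec4b1, outside these 5 genes, fell too (-2.61 ± 0.41, adjusted p = 6.2e-05). Clec4a1, Clec4a4 and Clec4b2 of the same stretch were not used here. The order along the chromosome was noticed after the values were seen and has no test.

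**Figure D2:**
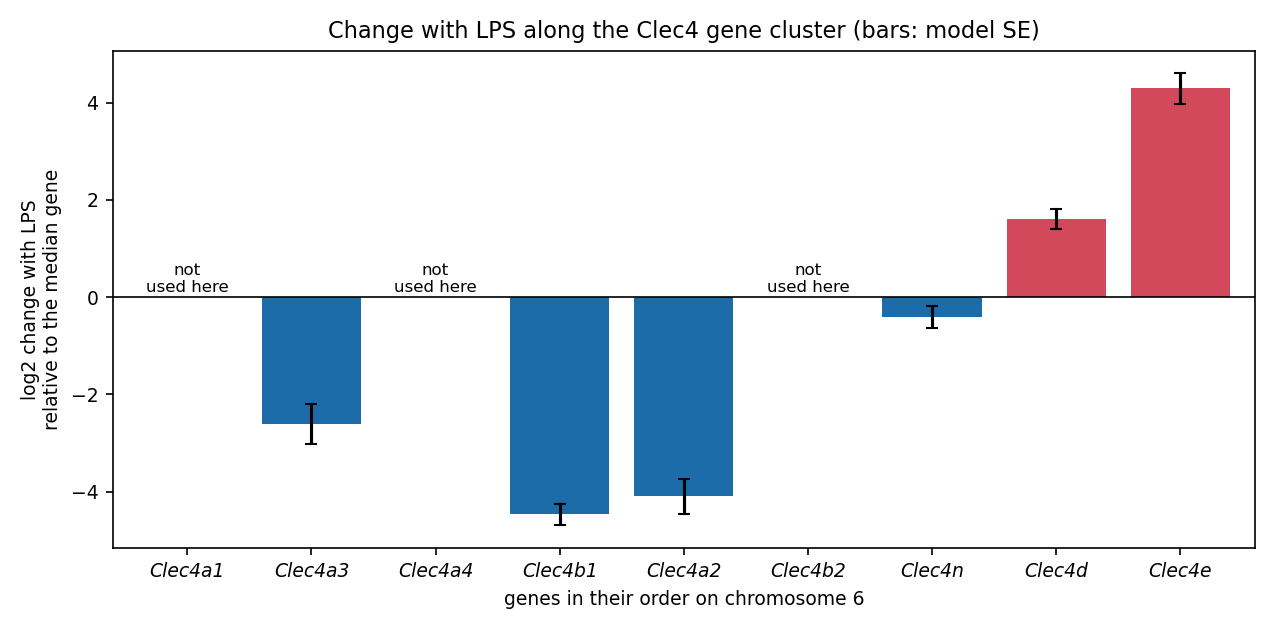
Change with LPS on the log2 scale relative to the median gene (bars, with the model's standard error) for the Clec4 genes in their order on chromosome 6. Clec4a3, Clec4b1 and Clec4a2 lie below 0, Clec4n just below it at -0.40, and Clec4d and Clec4e above it, and 3 genes were not used here.

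Within single retinoid conditions, with 2 arrays against 2, LPS changed 6 of 9 lectin genes without retinoid (2 higher, 4 lower, against 45.8% of all genes, 8.05% higher and 37.7% lower), 6 in RA cultures (2 higher, 4 lower, against 35.2%, 6.55% higher and 28.6% lower) and 7 in Ro cultures (1 higher, 6 lower, against 30%, 6% higher and 24% lower). Clec10a had -5.24 without retinoid, -5.04 with RA and -4.93 with Ro on the log2 scale (each ± 0.28). Clec4a2 had -3.58, -3.44 and -5.21 (each ± 0.52), its lowest signal being the 11.8 of the BALB/c culture with Ro and LPS. Clec4b1 had -4.20, -4.49 and -4.68 (each ± 0.40). The rise of Clec4e was 4.32 without retinoid, 5.50 with RA and 3.09 with Ro (each ± 0.26), or 20.0-fold and 45.2-fold for the first and second. That of Clec4d was 1.92 and 2.02 (each ± 0.29) without retinoid and with RA, and in Ro cultures the value was 0.93 ± 0.29 (adjusted p = 0.151). The comparisons share no arrays with each other, but they come from the same model of all 12 arrays. They share its strain term and its estimate of the spread, so they are not independent. The test of whether a response differs between them is the interaction given further on.

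**Figure D3:**
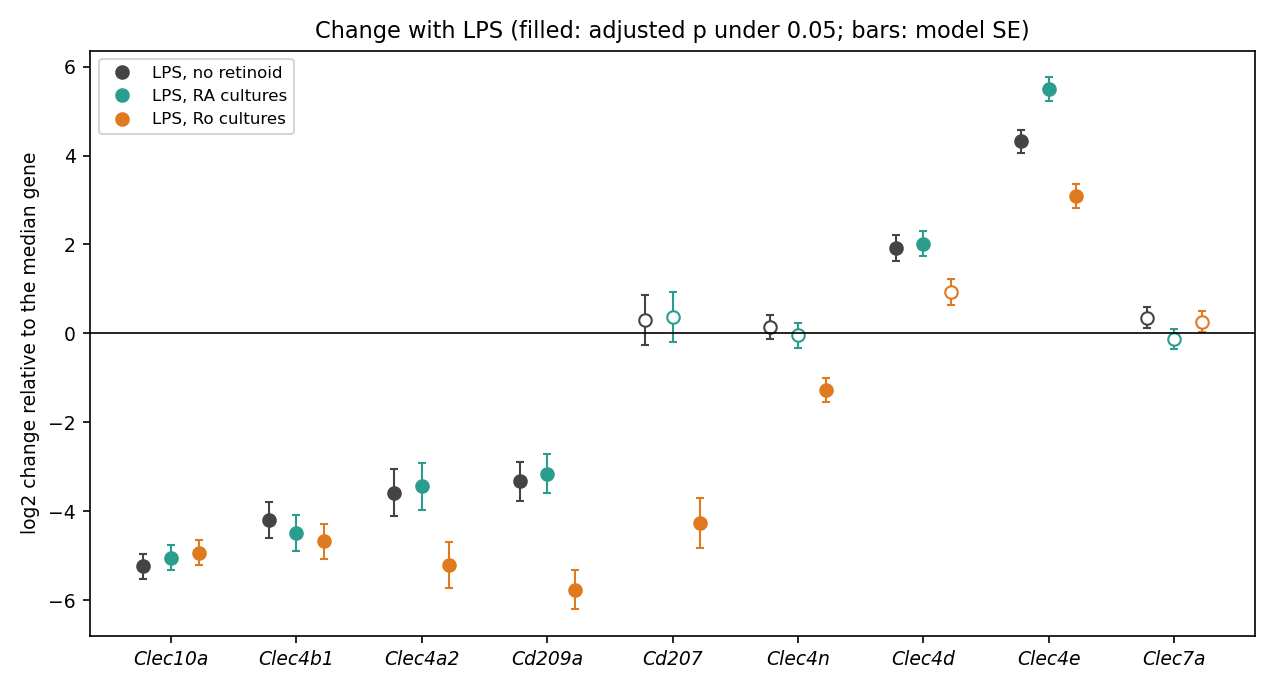
Change with LPS (log2, relative to the median gene, bars are the model's standard error) in cultures with no retinoid, RA or Ro, filled where the adjusted p is under 0.05. Clec4n and Cd207 are filled only for Ro cultures, where they lie at -1.27 and -4.27, and Clec4d is open only there.

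The second question was what Ro did to resting cultures. Cd207 and Cd209a, both uptake lectins, rose, and no lectin gene fell past the threshold. These were 2 of 9 lectin genes, against 2.69% of all genes (1.48% higher, 1.21% lower). Cd207 gave 1649 in BALB/c and 298 in BL6 with Ro, against 6.44 and 4.85 without retinoid and 3.19 and 2.12 with RA. Both Ro cultures were above every other culture of the series, and the change was 4.90 ± 0.56 (adjusted p = 0.00169), against a group below background. Cd207 was above its array's median only on arrays with Ro, so it passed the filter only through the group where it was high. Its call and its place in the 2 of 9 are not independent of that filter, here and in every other comparison with Ro. The BALB/c Ro culture exceeded the BL6 one by 2.28 on the log2 scale, relative to the median difference of all genes.

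Cd209a gave 2298 in BALB/c and 3379 in BL6 with Ro, against 767 and 389 without retinoid and 589 and 257 with RA. The groups did not overlap and Cd209a rose by 2.16 ± 0.44, or 4.46-fold (adjusted p = 0.0203). The call did not hold with an added constant of 1 (adjusted p = 0.0553) or without the replicate block (0.0678). This call was lost without the BALB/c Ro culture, the BL6 Ro culture or the BL6 culture with neither agent, where values ran from 1.72 to 2.58 and the adjusted p reached 0.211. Clec7a (2.01-fold lower with Ro) and Clec4d (-1.22 ± 0.29, 2.32-fold lower) both had adjusted p = 0.0869, and when only these 4 arrays were fitted both passed (adjusted p = 0.0469 and 0.0273).

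Langerhans cell markers were compared because Cd207 is best known in those cells. Of 6 tested, 2 rose with Ro in resting cultures: the adhesion gene Cdh1 by 4.03 ± 0.76 and the transcription factor gene Runx3 by 1.27 ± 0.26 on the log2 scale. Cdh1 gave 3159 and 2377 with Ro (BALB/c, BL6) against 453 and 32.8 without retinoid. Epcam had 0.12 ± 0.42 (adjusted p = 0.775) and Id2 0.35 ± 0.28 (adjusted p = 0.372). The summed signal of the 6 was 19670.0 and 19314 with Ro against 11898 and 13370.0 without. Of the 6 dendritic cell markers 2 rose in the same comparison and none fell past the threshold, with a median change of -0.10 over the list. Zbtb46 gave 501 and 391 with Ro against 125 and 134 without, while Itgax gave 5280 and 4284 against 6159 and 4671. Sums of other lists differed too. Monocyte markers gave 2382 and 1642 with Ro (BALB/c, BL6) against 4816 and 4932 without. Mast cell, basophil and eosinophil markers gave 413 and 4128 against 237 and 560. Granulocyte markers gave 11452 and 33668 against 22603 and 16180.5. Of these lists, only 1 of 9 granulocyte markers passed, and it was lower. The part of any of these cells in the rise of Cd207 and Cd209a was not tested.

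With LPS present, Ro lowered 5 of 9 lectin genes and raised none, against 5.59% of all genes lower and 16% higher (21.6% in either direction). Under quantile normalization 55.3% of all called genes were higher in place of 74.1%. Of these, Clec4d, Clec4e, Clec4n and Clec7a bind microbial ligands and Clec4a2 is the inhibitory receptor. Clec4d gave 1053 and 2418 (BALB/c, BL6) with Ro and LPS against 6146 and 5583 with LPS alone and fell by 2.15 ± 0.29 on the log2 scale, or 4.44-fold (adjusted p = 0.002). Clec4e, at 2623 and 5065 against 10112 and 11838, fell by 1.87 ± 0.26, or 3.65-fold (adjusted p = 0.00283). For all 5 lowered genes, each Ro culture with LPS lay below both cultures with LPS alone. How many of all genes were ordered in this way was not counted.

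Clec4n gave 2002 and 4946 with Ro and LPS against 7880.3 and 7659 with LPS alone, and fell by 1.59 ± 0.27 (adjusted p = 0.00872). Without the BALB/c culture with LPS alone its adjusted p was 0.0645. Clec7a gave 3173 and 4729 against 6364 and 6673 and had -1.03 ± 0.23, or 2.05-fold (adjusted p = 0.0401), a call lost (adjusted p up to 0.209) when any 1 of 6 arrays was left out, namely both cultures with LPS alone, both with Ro and LPS and both with RA alone. The call of Clec7a was also lost under quantile normalization (adjusted p = 0.0694) and without a filter (0.0692). The same held without the intensity trend (0.0973) and without the replicate block (0.112). Clec4a2 gave 11.8 and 121 against 210.1 and 192 and had -2.10 ± 0.52 (adjusted p = 0.0322). Its value ran from -3.09 without the BL6 culture with Ro and LPS to -1.13 without the BALB/c one, with adjusted p up to 0.207. It lost its call without the latter or without either culture with LPS alone, and its second probe set did not pass (-1.30, adjusted p = 0.0713). Clec4a2 also lost its call without the replicate block (adjusted p = 0.0795). Clec10a, Clec4b1 and Cd209a were below background with Ro and LPS on average.

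Macrophage markers fell in the same comparison in 9 of 11. Their summed signal was 4583 and 10354 with Ro and LPS (BALB/c, BL6) against 28364 and 39110.0 with LPS alone, with Cd68 at -2.78 ± 0.18 and the complement gene C1qa at -3.38 ± 0.26. In resting cultures 2 of 11 fell with Ro, and the sums were 43952 and 49390.2 with Ro against 47941 and 52485 without. With LPS present, other lists moved with Ro as well. Of 6 dendritic cell markers 3 were higher and 1 lower, with summed signals of 27790.4 and 28124 with Ro (BALB/c, BL6) against 27580 and 28168 without. Of 8 type 1 dendritic cell markers 2 were higher and none lower, with sums of 14772 and 13615 against 7458 and 5264. These sums with Ro rest mainly on Irf8 (11254 and 10558) and Batf3 (3240 and 2548). Xcr1, Cadm1 and Itgae were below background in both cultures with Ro and LPS, and the median change of the list was -0.03. Of 6 Langerhans cell markers 2 were higher, Cd24a and Runx3, with sums of 16946 and 14879 against 11867 and 9083. The part of these cells in the fall of Clec4d, Clec4e, Clec4n, Clec7a and Clec4a2 was not tested.

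**Figure D4:**
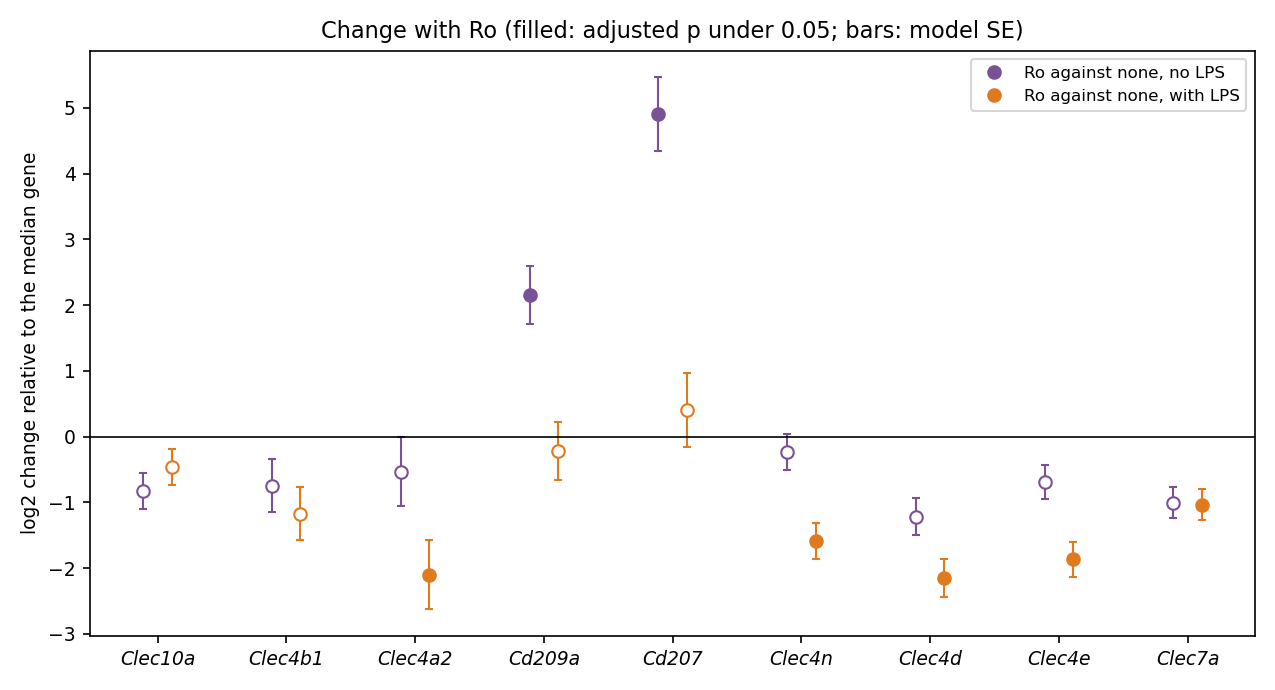
Change with Ro against no retinoid (log2, relative to the median gene, bars are the model's standard error) in cultures without and with LPS, filled where the adjusted p is under 0.05. Cd209a and Cd207 are filled above 0 without LPS, and Clec4a2, Clec4n, Clec4d, Clec4e and Clec7a are filled below 0 with LPS.

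Averaged over LPS and strain, 4 arrays against 4, Ro raised Cd207 (2.65 ± 0.83, adjusted p = 0.0336) and lowered Clec4d by 1.69 ± 0.25 on the log2 scale, or 3.22-fold (adjusted p = 0.00395), and Clec7a by 1.02 ± 0.17, or 2.03-fold (adjusted p = 0.0109). These were 3 of 9 genes against 18.5% of all genes (14.1% higher, 4.36% lower), of which 76.4% were higher, or 53.5% under quantile normalization. Among the 9 lectin genes, only Clec7a had its 4 Ro arrays (3083 to 5418) below all 4 arrays without retinoid (6364 to 7370.2). How many of all genes separated in this way was not counted. Cd207 lost its call when 1 of 5 arrays was left out (either resting culture without retinoid, either resting Ro culture, or the BALB/c culture with LPS alone), with values from 1.61 to 3.48 and adjusted p up to 0.0797. It was also lost with an added constant of 64 (adjusted p = 0.0570) and without the replicate block (0.0546). In BALB/c alone and BL6 alone, Cd207 (0.177, 0.224) and Clec4d (0.0646, 0.0871) did not pass, nor did Clec7a in BL6 (0.232). With LPS present, Cd207 changed with Ro by 0.40 ± 0.56 (adjusted p = 0.407), both groups being below background. The median of the 9 lectin genes was -0.96. In this averaged comparison 5 of 11 macrophage markers fell, with a median change of -1.67 over the list. Of the granulocyte markers 1 of 9 fell, and of the monocyte markers 1 of 3. Rises were seen in 3 of 6 Langerhans cell markers, 2 of 6 dendritic cell markers and 2 of 6 mast cell, basophil and eosinophil markers. The part of these cells in the changes of Cd207, Clec4d and Clec7a was not tested.

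Whether the response to LPS differed with Ro was tested directly. Of 9 lectin genes 1 passed, Cd207, against 0.644% of all genes (0.386% lower). Its LPS change was lower by 4.52 ± 0.80 with Ro than without (adjusted p = 0.0414), LPS taking the signals with Ro from 1649 to 29.0 in BALB/c and from 298 to 3.45 in BL6. The call was lost when any 1 of 8 arrays was left out and kept without either RA culture with LPS, the BL6 Ro culture or the BALB/c culture with LPS alone (values from -5.60 to -3.43, adjusted p up to 0.179). It was also lost under quantile normalization (adjusted p = 0.0563), with an added constant of 1 (0.177), without a filter (0.061), without the intensity trend (0.067) and without the replicate block (0.175), and Cd207 was not among the genes left by the stricter filter. Macrophage markers had a lower LPS change with Ro in 3 of 11, and their part in the result for Cd207 was not tested. For Clec4e the difference was -1.19 ± 0.37 (adjusted p = 0.22), for Clec4n -1.37 ± 0.39 (adjusted p = 0.179), for Clec4d -0.95 ± 0.41 (adjusted p = 0.379), for Clec4a2 -1.58 ± 0.74 (adjusted p = 0.392) and for Cd209a -2.39 ± 0.62 (adjusted p = 0.127).

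RA changed no lectin gene past the threshold, with or without LPS or averaged over both. Averaged over LPS, limma called 0 of 9 lectin genes and 0% of all genes, and 1 lectin gene, Clec4b1 (-1.06 ± 0.27, adjusted p = 0.23), had an unadjusted p under 0.05, as did 1024 of all genes. In resting cultures 0.145% of all genes were called, and Clec4b1 and Clec4e had an unadjusted p under 0.05. Clec4e gave 321 and 335 with RA (BALB/c, BL6) against 838 and 717 without, each RA culture below both others. Its change was -1.17 ± 0.26 with adjusted p = 0.104, and adjusted p = 0.00511 when only these 4 arrays were fitted. With LPS the change of Clec4e with RA was 0.02 ± 0.26, and its second probe set gave 0.04 in place of -0.57 averaged over LPS. The difference in LPS response with RA passed for 0 of 9 genes (1 at an unadjusted p under 0.05) and 0% of all genes.

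Set directly against each other and averaged over LPS, the agonist and the antagonist differed for 5 of 9 lectin genes, against 19.8% of all genes (5.36% higher with RA, 14.4% lower, and under quantile normalization 48.9% of called genes higher in place of 27.1%). Clec4d (1.66 ± 0.25), Clec7a (1.03 ± 0.17) and Clec10a (1.01 ± 0.20) were higher with RA, by 3.16-fold, 2.04-fold and 2.02-fold. Cd207 (-2.78 ± 0.83, adjusted p = 0.0256) and Cd209a (-1.30 ± 0.49, adjusted p = 0.0496) were lower, and the call of Cd209a was lost when any 1 of 9 arrays was left out (adjusted p up to 0.169) and that of Cd207 without either resting RA culture or the BL6 resting Ro culture (up to 0.0818). Cd209a also lost its call under quantile normalization, with a common median and with an added constant of 1 or 64. It did so too without a filter, without the intensity trend and without the replicate block (adjusted p from 0.0536 to 0.0708). Cd207 lost its call with an added constant of 64 (adjusted p = 0.0510), and Clec10a without the replicate block (0.0773). Macrophage markers were higher with RA in 8 of 11 (median 2.08). Their summed signal ran from 35067 to 73054 in RA cultures and from 4583 to 49390.2 in Ro cultures. Of 6 dendritic cell markers 4 were lower with RA, and so were 3 of 6 Langerhans cell markers. The Langerhans sums ran from 8799 to 12213 with RA and from 14879 to 19670.0 with Ro. Mast cell, basophil and eosinophil markers were lower with RA in 3 of 6. Of 8 type 1 dendritic cell markers 3 were lower and 1 higher, and 1 of 9 granulocyte markers was higher. The part of these cells in the 5 differences was not tested. This comparison shares its Ro arrays with Ro against no retinoid.

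BALB/c and BL6 cultures were compared over the 6 conditions. None of the 9 lectin genes passed in limma, against 15.3% of all genes (11.5% higher in BALB/c, 3.88% lower, and under quantile normalization 47.2% of called genes higher in place of 74.7%). Clec10a alone had an unadjusted p under 0.05. It was lower in BALB/c in 6 of 6 conditions and had -0.65 ± 0.16 with adjusted p = 0.0525, which passed under quantile normalization (-0.63, adjusted p = 0.0117) and with a common median (-0.70, adjusted p = 0.0111). The difference in LPS response between the strains passed for 0 of 9 genes (0 at an unadjusted p under 0.05), and that in Ro response for 0 of 9 (Clec4a2 and Clec7a at an unadjusted p under 0.05), against 0.113% and 0.0322% of all genes. Replicate number and strain are the same thing here, so a batch along either cannot be told apart.

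Among 39 other C-type lectin receptor genes, 28 were tested. LPS raised 5 and lowered 13 of them, against 11% of all genes higher and 47.9% lower, with a median change of -0.29. The share of lowered genes is near that of the array as a whole. The rises included Cd72, a B cell lectin that dendritic cells also carry (3.33 ± 0.30), the activation marker Cd69 (3.31 ± 0.45), Olr1, a receptor for oxidised lipoprotein (2.45 ± 0.31), and Ly75, the uptake receptor DEC-205 (1.97 ± 0.25). The falls included the mannose receptor gene Mrc1 (-4.20 ± 0.33), Cd93 (-3.92 ± 0.28), Asgr2 (-3.87 ± 0.65) and Mgl2, the close relative of Clec10a (-3.27 ± 0.40). Cd209c, Cd209d and Cd209e, relatives of Cd209a, had -2.75 ± 0.47, -2.13 ± 0.30 and -2.10 ± 0.40.

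With Ro, averaged over LPS, 1 of the 28 rose, Cd72 (2.22 ± 0.36), and 6 fell. Of all genes 14.1% were higher and 4.36% lower. The largest falls were those of Mrc1 (-2.08 ± 0.40), Clec1b, a platelet lectin with a Syk motif (-1.92 ± 0.22), Klra2 (-1.68 ± 0.32) and Cd93 (-1.40 ± 0.34). In resting cultures Ro raised 2 of the 28, Cd72 (3.10 ± 0.34) and Asgr2 (2.89 ± 0.47), and lowered 2, Clec1b (-1.51 ± 0.30, adjusted p = 0.0405) and Cd302 (-1.45 ± 0.29, adjusted p = 0.0424). Of all genes 1.48% were higher and 1.21% lower with Ro in resting cultures. With LPS present 3 of the 28 were higher with Ro and 2 lower, against 16% and 5.59% of all genes. RA changed none of the 28 and 0% of all genes averaged over LPS. In resting cultures it lowered 0.113% of all genes and 1 of the 28, the hepatic-type galactose lectin gene Asgr2. Asgr2 fell by 2.88 ± 0.47 on the log2 scale, or 7.36-fold (adjusted p = 0.0496). It thus had opposite changes with the agonist and the antagonist against the same 2 cultures without retinoid.

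Signalling genes downstream of the lectins were 15 activating ones, of which 11 were tested, and 5 inhibitory ones, all tested. Of all genes, LPS raised 11% and lowered 47.9%. Ro, averaged over LPS, raised 14.1% and lowered 4.36% of all genes, and RA changed 0%. LPS raised 1 activating gene, Malt1, a paracaspase of the pathway from Card9 (2.71 ± 0.39), and lowered 7, among them Nfatc2 (-1.99 ± 0.29), the phospholipase gene Plcg2 (-1.54 ± 0.20), the kinase gene Pik3cd (-1.47 ± 0.24) and Vav3 (-1.10 ± 0.26), with a median of -0.22. It lowered 3 inhibitory genes, the phosphatase genes Inpp5d (-1.36 ± 0.16) and Ptpn6 (-0.70 ± 0.19) and the kinase gene Csk (-0.89 ± 0.19). Ro, averaged over LPS, lowered Syk itself (-1.01 ± 0.16, adjusted p = 0.0078) and Fcer1g, the adaptor of Clec4e, Clec4d, Clec4n and Clec4b1 (-0.79 ± 0.15, adjusted p = 0.0223). It raised Nfatc2 (1.27 ± 0.35) and Vav3 (0.99 ± 0.32) and changed none of the 5 inhibitory genes, and RA changed none of the tested signalling genes.

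The genes whose log2 signals followed each lectin gene best over the 12 arrays are given as a description, since all arrays share the same conditions. For Clec10a they were Txn2, 3110082I17Rik and Acaa2 (r = 0.986 to 0.992), for Clec4b1 Ccr2, Slc25a5 and Ldlrad3 (0.982 to 0.987), for Clec4a2 Cln6, Slc43a2 and Cdc25b (0.971 to 0.975) and for Cd209a Rasgrp4, Cad and Cenpm (0.982 to 0.983). Ccr2 is the chemokine receptor of monocytes. For Clec4e they were Hamp, Dnajc1 and U90926 (0.973 to 0.977) and for Clec4d A930007I19Rik, Armcx3 and Clmp (0.952 to 0.97). Clec4n was followed best by Csf1r (0.979), the macrophage growth factor receptor, then Alox5ap and Evl (0.972 at the lowest). Cd207 was followed by Atp8b1, Prkcq and Phf24 (0.966 to 0.977). Cd207 was above background only in the 2 resting Ro cultures, and the likeness without these 2 was not tested. Clec7a was followed by Lamp1, Ecm1 and Clec1b (0.918 to 0.947).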

How the data were processed

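The deposited table gives a linear intensity for each of 45101 probe sets per array. Per the submitters' processing notes the tool was MAS5, without a version. Of these probe sets 34945 carried 1 gene name. The intensities, at the authors' scaling, were taken as log2(signal + 16). A probe set was kept above its array's median on at least 2 of 12 arrays, and the brightest one stood for its gene. All 12429 genes entered linear models in limma 3.58.1 under R 4.3.3, using lmFit and eBayes with trend, with Benjamini-Hochberg adjustment and a threshold of 0.05. Averaged comparisons came from retinoid, LPS and strain terms, the others from the 6 conditions plus strain. Strain was a block: replicate 1 is BALB/c and replicate 2 BL6 throughout, and strain differences of any 2 conditions correlated at r = 0.304 to 0.699 across genes (15 pairs). Detection calls were not used.

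The comparisons were run on all genes. The linear model was checked on simulated data for the averaged LPS comparison only. The number of arrays limits the precision, and p-values reflect only how far these arrays spread, which may be technical, since nothing says that cultures of 1 strain came from separate animals. The members and gene lists were chosen with earlier results of these data known. The rule for named genes took every lectin gene, up to 4 genes per direction of each other list in the averaged LPS, Ro and RA comparisons and the 3 genes most correlated with each lectin gene. Cd209c, Cd209d, Cd209e, the genes named in single conditions and the marker genes were named after their values were seen. One probe set shared by Clec4b1 and Clec4a2 was left out. Alternatives covered the scaling, the added constant, the filter, the probe set, the trend, the block, the arrays fitted, each strain alone and each array left out. Of the marker lists not described above, with LPS averaged over retinoid the type 1 dendritic cell list had 2 higher and 4 lower of 8, mast cells, basophils and eosinophils 5 lower of 6, B cells 1 lower of 3 and Langerhans cells 2 higher and 3 lower of 6. Promoters and gene order come from RefSeq tables (GRCm38.p6). Tables were made with Python 3.11.15, pandas 2.3.3 and matplotlib 3.10.9.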

Additional observations from a re-analysis of the deposited data

Results flagged for a closer look

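Cd207 had a response to LPS that differed with Ro by the interaction term, at -4.52 ± 0.80 on the log2 scale (limma, adjusted p = 0.0414). The call was lost when any 1 of 8 of the 12 arrays was left out, under quantile normalization, with an added constant of 1, without a filter, without the intensity trend and without the replicate block. Both signals of Ro cultures fell below background with LPS, and those of cultures without retinoid were below it with and without LPS. Cd207 passed the filter only through arrays with Ro.

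Relative to the median gene, the LPS difference of Cd207 had opposite signs in RA cultures (0.557 in BALB/c and 0.199 in BL6) and in Ro cultures (-4.72 and -3.79), on the log2 scale. The positive sign comes from subtracting the median change: the Cd207 signals of RA cultures were lower with LPS (2.84 against 3.19 in BALB/c, 1.75 against 2.12 in BL6), all of them below background, and the fitted difference before subtraction was -0.028. The signals thus show no rise of Cd207 with LPS in RA cultures, and the difference between RA and Ro cultures was not tested.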

How the results depend on the processing

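The number of lectin genes past the threshold stayed within 1.5 times its main value in 305 recomputed counts and moved further in 43. For LPS, averaged or within 1 retinoid condition, it stayed within that range under all settings, the averaged count running from 7 to 8 when single arrays were left out, and every lectin gene called for averaged LPS was still called then. Under quantile normalization Ro averaged over LPS changed 5 lectin genes, strain 1 and the interaction of Ro with LPS 0. Of all genes, 1764, 1913 and 174 were called in these 3 comparisons, against 2298, 1907 and 80 in the main fit. With a common median strain changed 1 lectin gene and the interaction of Ro with LPS 3, with 1588 and 229 of all genes called. With an added constant of 1, strain changed 1, Ro without LPS 1 and the interaction 0, and with 64, RA against Ro changed 3. The interaction gave 0 without a filter, without the intensity trend and without the replicate block. The stricter filter gave 1 for strain, 1 for Ro without LPS and 0 for the interaction. Leaving out the replicate block gave 3 for RA against Ro, 1 for Ro without LPS and 3 for Ro with LPS, and changed no other count by over 1.5 times. BALB/c alone gave 1 for Ro and 2 for RA against Ro, and BL6 alone 0 and 1. Fitting only the 4 arrays gave 1 for RA and 4 for Ro without LPS. The numbers of all genes called in this fit are not given here, so its counts do not single out the lectin genes. With single arrays left out, counts ran from 0 to 1 for strain, 3 to 5 for RA against Ro, 1 to 3 for Ro without LPS, 2 to 5 for Ro with LPS and 0 to 2 for the interaction of Ro with LPS. Directions that turned, none of them called, were those of Clec7a for averaged LPS (-0.20 under quantile normalization, -0.075 without a filter, -0.054 in BL6 alone), for LPS without retinoid (-0.19 under quantile normalization) and for LPS in Ro cultures (-0.038 under quantile normalization), and of Clec4e for averaged RA (0.036 on its second probe set). With single arrays left out, values spanned 0 for Clec7a in LPS in Ro cultures (-0.064 to 0.62) and in RA with LPS (-0.64 to 0.17), for Cd209a in RA without LPS (-0.89 to 0.013), and in the interaction of strain with Ro for Cd207 (-0.082 to 4.12) and Cd209a (-2.02 to 0.011). The cause of these changes was not tested. Below background the size of a change is set by the added constant.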
